A study of Mus musculus with 6 samples.

Results

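Prostaglandins are lipid messengers made from arachidonic acid, and the genes described here make them, sense them and break them down. They are 10 gene symbols: Pla2g4a, which releases the precursor, the cyclooxygenases Ptgs1 and Ptgs2, the terminal synthases Ptges, Ptges2, Ptges3 and Ptgis, the E receptors Ptger2 and Ptger4, and the degrading enzyme Hpgd. The 10 were taken by symbol, a rule that uses no measured value, although earlier results of these data were known when they were chosen. Each had a row among the 19865 symbols of the deposited count tables. In trSrebf1 libraries Ptgs1, Ptges and Ptges2 were higher than in control libraries, and Ptgs2 and Ptgis were lower. Of the remaining 5 genes, Pla2g4a, Ptges3 and Ptger2 did not pass the test, and Ptger4 and Hpgd had too few counts to be tested.

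The study measured donor lung fibroblasts by 3'SAGE-seq, a method that sequences 1 short tag from the 3' end of a polyA transcript, in 3 trSrebf1 and 3 control libraries. The cells came from lungs of Col1a2-GFP transgenic mice of the C57BL/6 strain, in which the promoter of the collagen gene Col1a2 drives a green fluorescent reporter. A retrovirus carried either trSrebf1, an active form of the lipid synthesis factor Srebf1c, or a control vector, and marked the cells with hLNGFR, a human surface receptor. The question is how active Srebf1c alters the transcripts of fibroblasts inside an injured lung.

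Both groups otherwise had the same history. Host mice received bleomycin at 2 mg/kg, which injures the lung, and got the transduced cells through the trachea on day 5. Doxycycline, the inducer of trSrebf1, was given on day 7, a step that the labels record for both groups. Cells were recovered on day 10 by depleting CD31, CD45, EpCAM, CD146 and Ter119 positive cells and sorting live cells positive for the reporter and the marker, 10000 per library. The reporter limits the sort to cells with an active Col1a2 promoter, and the labels leave unsaid whether replicates are separate mice or cultures. So the p-values set the difference between groups against the spread of these libraries within a group, which may be only technical.

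Library totals were 4688196, 4151691 and 4504005 counts in trSrebf1 and 3888560, 3675146 and 4134354 counts in control. Srebf1 itself had 133, 123 and 108 tags in trSrebf1 libraries, against 32, 20 and 33 tags in control libraries, a log2 fold change of 1.98 (SE 0.23; edgeR quasi-likelihood test with Benjamini-Hochberg adjustment, adjusted p = 2.88e-06). Tags of the transgene and of the mouse gene cannot be told apart in these counts, and Srebf1 overlaps Rai1 on the opposite strand by 109 exonic bases. Ctsd, which encodes the lysosomal protease cathepsin D, averaged 69139 ± 2997 CPM (counts scaled to a common library total) in trSrebf1 and 9018 ± 236 CPM in control (SD, n = 3 each), so it took a larger share of the trSrebf1 totals. With Ctsd left out of the library sizes, the 8 genes tested here kept their direction and side of the threshold. Of the 10194 genes that passed the filter on low counts, 1755 were higher and 1328 were lower in trSrebf1, with a median log2 fold change of -0.01.

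Prostaglandin synthesis starts when a phospholipase frees arachidonic acid from membrane lipids. A cyclooxygenase turns it into prostaglandin H2, which terminal synthases convert into prostaglandin E2, prostacyclin and other products that act on receptors at the cell surface. In lung, fibroblasts are a known source of prostaglandin E2, which acts through the cyclic AMP-coupled receptors EP2 and EP4 to restrain fibroblast growth and collagen production, while prostacyclin widens blood vessels.

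The promoters of the 2 cyclooxygenases, which moved in opposite directions, and of Ptges, the more abundant of the prostaglandin E synthases that rose, are shown first. Each sequence runs 5′ to 3′ from 250 bases before to 50 bases after the RefSeq gene start (GRCm38.p6), with matches to the motifs searched in capitals. Ptgs1 lies at chr2:36230176-36230475 on the plus strand, Ptgs2 at chr1:150099781-150100080 on the plus strand and Ptges at chr2:30903248-30903547 on the minus strand. The Ptges window lies inside the gene as GENCODE places it (chr2:30889471-30929863). The outermost GENCODE start of Ptges was not searched.
Ptgs1: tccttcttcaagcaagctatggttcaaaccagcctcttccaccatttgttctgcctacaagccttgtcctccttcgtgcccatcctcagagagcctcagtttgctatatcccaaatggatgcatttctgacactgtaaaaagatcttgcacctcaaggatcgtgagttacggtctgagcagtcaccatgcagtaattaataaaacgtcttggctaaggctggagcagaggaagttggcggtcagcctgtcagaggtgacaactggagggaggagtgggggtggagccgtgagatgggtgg
Ptgs2: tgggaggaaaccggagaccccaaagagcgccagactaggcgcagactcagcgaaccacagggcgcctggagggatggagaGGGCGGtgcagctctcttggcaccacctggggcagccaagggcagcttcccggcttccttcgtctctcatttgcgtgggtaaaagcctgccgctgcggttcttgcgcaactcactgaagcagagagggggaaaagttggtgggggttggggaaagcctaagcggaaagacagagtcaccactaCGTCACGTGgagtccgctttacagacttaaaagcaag
Ptges: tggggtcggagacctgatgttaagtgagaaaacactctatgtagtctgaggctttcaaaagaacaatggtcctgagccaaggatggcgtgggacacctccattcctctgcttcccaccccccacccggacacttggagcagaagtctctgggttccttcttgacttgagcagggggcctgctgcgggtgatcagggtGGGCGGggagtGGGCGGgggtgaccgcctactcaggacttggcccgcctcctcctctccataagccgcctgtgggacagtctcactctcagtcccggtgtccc
The windows differed in base composition and motifs. GC content was 50.7% for Ptgs1, 59.3% for Ptgs2 and 60.0% for Ptges, with a median of 52.7% over all promoters. The Ptgs2 window held the Sp1 box GGGCGG at -170 and a cyclic AMP response element core TGACG (minus strand) at +14, which overlaps the E-box CACGTG at +17. Ptges held GGGCGG at 2 sites. The Ptgs1 window held no match. The motifs were searched on both strands, and among 32851 RefSeq promoters of the same length, GGGCGG was in 35.7%, TGACG in 20.8% and CACGTG in 7.15%. The other motifs searched were the TATA box TATAAA (13.6% of promoters), the NF-Y box CCAAT (37.4%), the NF-kB motif (5.55%) and the sterol regulatory element TCACNCCAC (1.24%). The sterol element was absent from the window of each of the 9 prostaglandin genes that matched the promoter table, which did not hold Ptgis. A match describes letters only, and the absence of one says only that those letters are not in the window.

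**Figure D1:**
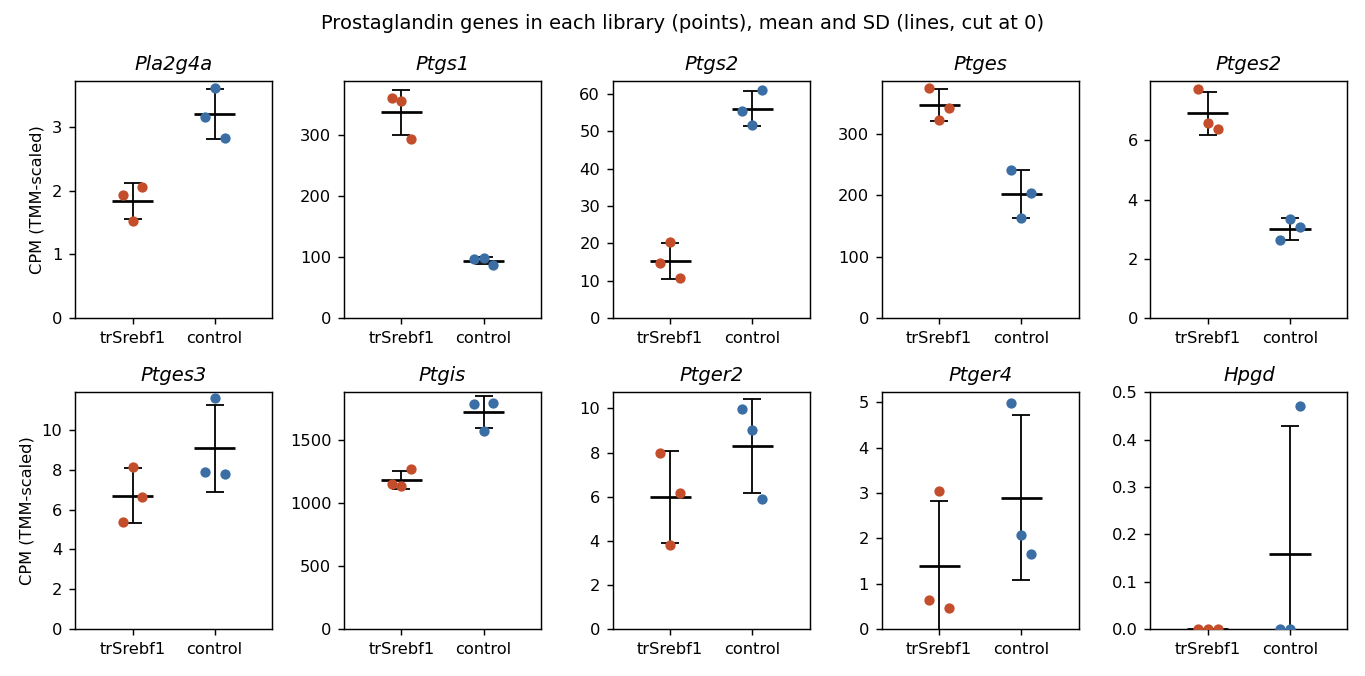
CPM of the prostaglandin genes in each library, trSrebf1 left of control, with 1 panel a gene, points for libraries and lines for the mean and SD (n = 3). Ptgs1, Ptges and Ptges2 sit higher in all 3 trSrebf1 libraries, Ptgs2, Ptgis and Pla2g4a sit lower, and Hpgd is at 0 in all trSrebf1 libraries.

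Arachidonic acid release was represented by Pla2g4a (GRCm38 chr1:149829618-149961290, minus strand; gene positions are from GENCODE), which encodes cytosolic phospholipase A2 alpha. Its counts were 9, 6 and 9 in trSrebf1 and 12, 14 and 12 in control. The levels were 1.94, 1.52 and 2.06 CPM in trSrebf1 and 3.15, 3.61 and 2.83 CPM in control, so the groups did not overlap, although every library held 14 tags or fewer. The log2 fold change was -0.78 (SE 0.43, 95% interval -1.69 to 0.13) and did not pass the threshold (edgeR adjusted p = 0.195). Pla2g4a and Ptgs2 lie on the same chromosome, with 138740 bases between them. A miss at this depth does not show that release of arachidonic acid by Pla2g4a was the same.

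Of the 8 prostaglandin genes that were tested, 5 passed an adjusted p of 0.05, against 30.2% of all tested genes, with 3 higher (17.2% of all tested genes) and 2 lower (13.0%). The median log2 fold change of the 8 was -0.45. The groups of libraries did not overlap in CPM for 6 of the 8, against 43.4% of all tested genes. The 3 rises and 2 falls were found again in each of 14 alternative settings.

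**Figure D2:**
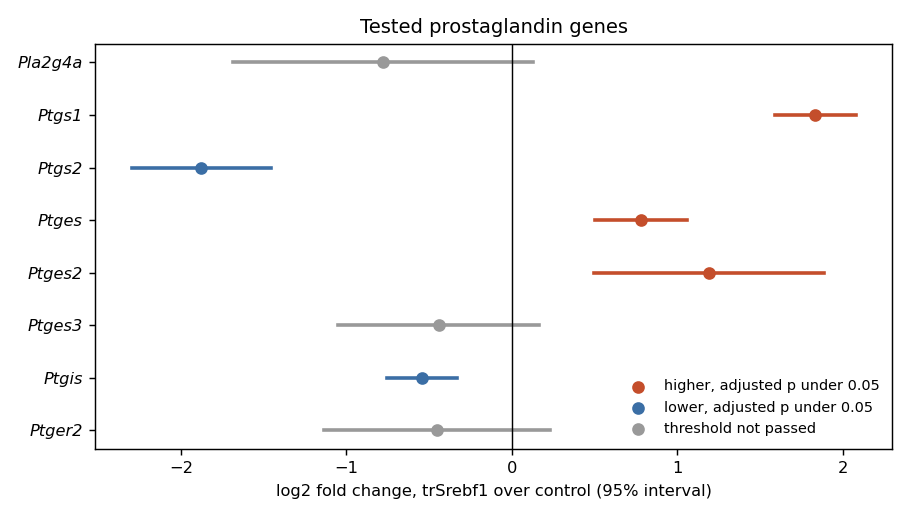
Log2 fold changes with 95% intervals of the 8 tested prostaglandin genes, ordered by role, with colours for higher, lower and not passing the threshold. The intervals of Ptgs1, Ptges and Ptges2 lie above 0, those of Ptgs2 and Ptgis lie below 0, and those of Pla2g4a, Ptges3 and Ptger2 cross 0.

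Among the 8 tested genes the largest changes were in the cyclooxygenases, and they went in opposite directions. Ptgs1 (chr2:36230426-36252272, plus strand) encodes cyclooxygenase 1, the form that is usually made constantly. It had 359.8, 355.3 and 293.5 CPM in trSrebf1, against 96.5, 98.6 and 87.8 CPM in control. The lowest trSrebf1 library was well above the highest control library. The mean was 336 ± 37.0 CPM in trSrebf1 and 94.3 ± 5.74 CPM in control (SD, n = 3 each), a 3.57-fold rise, with a log2 fold change of 1.83 (SE 0.12, 95% interval 1.59 to 2.08; edgeR adjusted p = 1.89e-09). Ptgs1 overlaps Gm43621 on the opposite strand by 148 exonic bases, and reads of the 2 cannot be told apart without strand.

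Ptgs2 (chr1:150100031-150108227, plus strand) encodes cyclooxygenase 2, the form induced by cytokines and growth factors. It had 14.8, 20.3 and 10.7 CPM in trSrebf1, against 55.3, 51.6 and 60.9 CPM in control. All 3 trSrebf1 libraries were below all 3 control libraries. The means were 15.3 ± 4.80 CPM in trSrebf1 and 55.9 ± 4.66 CPM in control (SD, n = 3 each), so the gene was 3.66-fold lower in trSrebf1, with a log2 fold change of -1.88 (SE 0.20, 95% interval -2.30 to -1.46; edgeR adjusted p = 1.14e-06). The opposite-strand gene Ptgs2os, whose start lies 67 bases from that of Ptgs2 and which runs away from it with no overlap, had 5, 6 and 2 tags in trSrebf1 and 7, 3 and 5 tags in control. In bulk RNA, fewer cells with a transcript and less transcript per cell cannot be told apart.

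The makeup of the cyclooxygenase tags differed between groups. Ptgs2 was 3.96% (95% Wilson interval 3.14 to 4.98), 5.41% (4.36 to 6.68) and 3.53% (2.66 to 4.66) of the Ptgs1 plus Ptgs2 tags in trSrebf1 libraries. In control libraries it was 36.4% (32.6 to 40.4), 34.4% (30.6 to 38.3) and 41.0% (37.2 to 44.8). The intervals of trSrebf1 libraries did not overlap those of control libraries; the intervals, and the floors given for counts of 0, cover counting error alone, because the tags were amplified and no molecular identifiers are described. The share averaged 4.30% ± 0.985 in trSrebf1 and 37.3% ± 3.38 in control (SD, n = 3 each). This is a share of tags, 1 a transcript end and not scaled by length. The summed level of both genes was 351 ± 40.9 CPM in trSrebf1 and 150.2 ± 1.603 CPM in control.

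**Figure D3:**
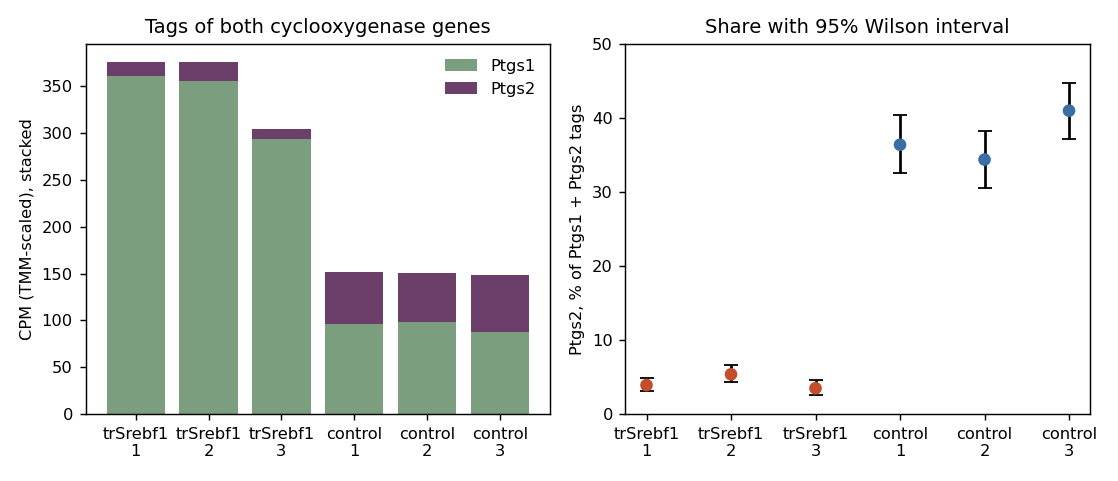
Stacked bars give the level of Ptgs1 and Ptgs2 in each library in CPM, and points give the share of Ptgs2 in their summed tags in percent with its 95% Wilson interval, trSrebf1 left of control. Ptgs1 lies between 293.5 and 359.8 CPM in trSrebf1 and between 87.8 and 98.6 CPM in control, and the Ptgs2 share lies between 3.53% and 5.41% in trSrebf1 and between 34.4% and 41.0% in control.

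Ptgs2 mRNA is known to be unstable because of AU-rich elements in its 3' untranslated region. The pentamer ATTTA occurred 14 times in the 2445 bases of the longest annotated one (GENCODE M21), or 5.73 per kilobase, which was above 97.1% of 8986 tested genes and above their median of 1.26. Bases 12 to 41 of the region hold 4 of them, shown with the pentamers in capitals because such elements are the known seat of its instability.
Ptgs2, chromosome 1, plus strand: ccatATTTATTTATTTAtgtgaagaATTTA
Ptgs1, Ptges and Ptgis held none in 921, 3106 and 417 bases. Pla2g4a held 4 in 443 bases, or 9.03 per kilobase, which is denser than Ptgs2 and above 99.6% of tested genes. Hpgd held 4 in 838 (4.77 per kilobase, above 95.1%) and Ptger4 5 in 1233 (4.055 per kilobase, above 92.3%). Ptges3 held 4 in 1186, Ptges2 4 in 3444 and Ptger2 6 in 1825. The elements are a description of the annotated transcript.

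Prostaglandin E2 synthases differed in abundance and direction. Ptges (chr2:30889471-30929863, minus strand) encodes microsomal prostaglandin E synthase 1, which works downstream of cyclooxygenase. It had 375, 323 and 343 CPM in trSrebf1, against 241, 163 and 203 CPM in control. Each trSrebf1 library was above each control library. The means were 347 ± 26.4 CPM in trSrebf1 and 202 ± 39.1 CPM in control (SD, n = 3 each), 1.72-fold higher in trSrebf1, with a log2 fold change of 0.78 (SE 0.13, 95% interval 0.50 to 1.06; edgeR adjusted p = 0.000178).

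Ptges2 (chr2:32395896-32405772, plus strand), a membrane-associated enzyme named as a prostaglandin E synthase, was much less abundant. Its counts were 36, 26 and 28 in trSrebf1 and 10, 13 and 13 in control, or 7.74, 6.60 and 6.40 CPM in trSrebf1 and 2.62, 3.35 and 3.07 CPM in control. The groups did not overlap. It rose 2.29-fold, with a log2 fold change of 1.19 (SE 0.33, 95% interval 0.49 to 1.89; edgeR adjusted p = 0.0103, and 0.00875 to 0.046 over the 14 alternatives).

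Ptges3 (chr10:128058954-128077272, plus strand) encodes p23, a chaperone partner of HSP90 that has prostaglandin E synthase activity. It had 5.38, 8.12 and 6.62 CPM in trSrebf1 and 7.87, 11.6 and 7.78 CPM in control. The groups overlapped. The log2 fold change was -0.44 (SE 0.29, 95% interval -1.05 to 0.17; edgeR adjusted p = 0.281). Its 3' end shares 174 of 1154 30-base words with the pseudogene Ptges3-ps, so its counts are uncertain.

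Prostacyclin synthase was the most abundant of the 10 transcripts by tags. Ptgis (chr2:167191805-167240604, minus strand) had 1145, 1129 and 1266 CPM in trSrebf1, against 1785, 1572 and 1793 CPM in control. All 3 trSrebf1 libraries lay below all 3 control libraries. The means were 1180.0 ± 74.6 CPM in trSrebf1 and 1716 ± 126 CPM in control (SD, n = 3 each), which is 1.45-fold lower in trSrebf1, with a log2 fold change of -0.54 (SE 0.10, 95% interval -0.75 to -0.33; edgeR adjusted p = 0.000444). Ptgis overlaps 1110018N20Rik on the opposite strand by 156 exonic bases.

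The E receptors that raise cyclic AMP were scarce. Ptger2 (chr14:44988195-45003820, plus strand) encodes EP2 and had 37, 15 and 27 tags in trSrebf1 and 38, 35 and 25 tags in control. These were 7.96, 3.81 and 6.17 CPM in trSrebf1 and 9.96, 9.03 and 5.90 CPM in control. The groups overlapped, and the log2 fold change of -0.45 (SE 0.32, 95% interval -1.13 to 0.23) did not pass (edgeR adjusted p = 0.330). It overlaps Gm17173 and Gm49364 on the opposite strand.

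Ptger4 (chr15:5206661-5244187, minus strand) encodes EP4 and had 3, 12 and 2 tags in trSrebf1 and 19, 8 and 7 tags in control. The levels of 0.645, 3.05 and 0.457 CPM in trSrebf1 and 4.98, 2.06 and 1.65 CPM in control overlapped. Ptger4 shares up to 1015 exonic bases with the opposite-strand genes Gm15937 and Ttc33, so its few tags are uncertain without strand. It failed the count filter and was not tested in the setting used here. Without the filter its log2 fold change was -1.08 (edgeR adjusted p = 0.224), and in 4 leave-one-out settings that kept it the adjusted p was 0.172 to 0.536. Hpgd (chr8:56294585-56321043, plus strand) encodes the NAD-dependent enzyme that inactivates prostaglandins. It had 0 tags in all 3 trSrebf1 libraries and 0, 0 and 2 tags in control libraries. A count of 0 allows up to 3 counts, or 0.645 to 0.787 CPM by library, so Hpgd was not detectable as different at this depth and no fold is given.

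The next genes come from lists of the surrounding pathway. Over the 9 lists, 101 distinct genes were tested, 15 rose and 44 fell, against 17.2% higher and 13.0% lower of all tested genes. In the phospholipase list 1 of 8 tested genes rose and 2 fell (median log2 fold change 0.07), against 17.2% higher and 13.0% lower of all tested genes. Pla2g16, a phospholipase that acts in adipocytes, averaged 19.8 ± 2.66 CPM in trSrebf1 and 8.48 ± 0.871 CPM in control, and rose by a log2 fold change of 1.22 (SE 0.22, edgeR adjusted p = 0.000407). Pla2g15, a lysosomal phospholipase, averaged 12.5 ± 1.85 CPM in trSrebf1 and 24.3 ± 1.49 CPM in control, and fell by 0.96 on the log2 scale (SE 0.20, adjusted p = 0.0012). Mgll, which cuts a monoacylglycerol to free arachidonate, averaged 12.7 ± 1.90 CPM in trSrebf1 and 23.3 ± 1.51 CPM in control, and fell by 0.88 (SE 0.20, adjusted p = 0.00261). Pla2g12a, the most abundant of the list, did not pass (log2 fold change -0.16, adjusted p = 0.428). All adjusted p-values for these pathway genes are from the edgeR quasi-likelihood test.

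Other prostanoid synthases and reductases included the largest relative rise. Akr1c18, an aldo-keto reductase best known in mouse for inactivating progesterone, had 51, 57 and 66 tags in trSrebf1 and 3, 4 and 2 tags in control. It averaged 13.5 ± 2.22 CPM in trSrebf1 and 0.763 ± 0.281 CPM in control, a log2 fold change of 4.10 (SE 0.39, edgeR adjusted p = 2.8e-07). Cbr3, a carbonyl reductase, averaged 6.65 ± 2.04 CPM in trSrebf1 and 1.87 ± 1.47 CPM in control (log2 fold change 1.78, SE 0.46, adjusted p = 0.00667). Its tags numbered 23, 24 and 39 in trSrebf1 and 5, 3 and 15 in control, and without control 3 the log2 fold change was 2.62, and the call held. Of the 6 tested genes 3 rose and 1 fell (median -0.13), against 17.2% higher and 13.0% lower of all tested genes.
Fam213b, which makes prostaglandin F2 alpha, averaged 46.8 ± 0.317 CPM in trSrebf1 and 34.3 ± 3.57 CPM in control (log2 fold change 0.45, adjusted p = 0.0315). Over the 14 alternatives the adjusted p ran from 0.0179 to 0.15, and the call was lost in 9, among them leaving out control 2 (0.0978), control 3 (0.15), trSrebf1 1 (0.0701), trSrebf1 2 (0.0569) or trSrebf1 3 (0.0723). Akr1b3 is an aldose reductase whose 3' end shares 598 of 2266 30-base words with Gm6644, so its counts are uncertain. It averaged 5.18 ± 0.716 CPM in trSrebf1 and 8.84 ± 1.14 CPM in control (log2 fold change -0.77, adjusted p = 0.0479). Over the 14 alternatives its adjusted p ran from 0.0279 to 0.159, and the call was also lost in 9, which included leaving out any of the 6 libraries: control 1 (0.0687), control 2 (0.0674), control 3 (0.159), trSrebf1 1 (0.148), trSrebf1 2 (0.0944) and trSrebf1 3 (0.0627).

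Among breakdown and transport genes, 0 of 5 tested rose and 2 fell (median -0.53), against 17.2% higher and 13.0% lower of all tested genes. Slco3a1, a prostaglandin transporter, averaged 1.06 ± 0.546 CPM in trSrebf1 and 3.79 ± 0.551 CPM in control (log2 fold change -1.78, SE 0.49, edgeR adjusted p = 0.00967). Zadh2, which reduces 15-keto prostaglandins, averaged 4.76 ± 0.425 CPM in trSrebf1 and 9.14 ± 1.12 CPM in control (log2 fold change -0.93, SE 0.28, adjusted p = 0.0175), and this was lost without control 1 (0.0583) or trSrebf1 2 (0.0512), with 0.0101 to 0.0583 over all alternatives. Ptgr2, the most abundant of the list, averaged 28.0 ± 5.26 CPM in trSrebf1 and 28.4 ± 3.72 CPM in control and did not pass.

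The prostacyclin receptor Ptgir gave the largest rise among receptors. It had 243, 216 and 239 CPM in trSrebf1, against 41.2, 25.03 and 29.96 CPM in control. All trSrebf1 libraries were far above all control libraries. The mean was 232 ± 14.4 CPM in trSrebf1 and 32.1 ± 8.27 CPM in control (SD, n = 3 each), 7.25-fold higher, with a log2 fold change of 2.86 (SE 0.16; edgeR adjusted p = 4.39e-10). Its level moved the opposite way from that of Ptgis, the enzyme that makes its ligand. Ptgfrn, a negative regulator of the prostaglandin F receptor, averaged 338 ± 19.9 CPM in trSrebf1 and 416 ± 11.3 CPM in control (log2 fold change -0.30, adjusted p = 0.0315), and was lost in 6 alternatives, among them control 1 (0.0541), control 3 (0.0847), trSrebf1 1 (0.131) and trSrebf1 3 (0.104) left out, with 0.00503 to 0.131 over all alternatives. The thromboxane receptor Tbxa2r averaged 1.90 ± 1.05 CPM in trSrebf1 and 4.69 ± 0.251 CPM in control (log2 fold change -1.28, adjusted p = 0.0349), and was lost in 6 alternatives, among them control 1 (0.0585), control 2 (0.0789), control 3 (0.0911), trSrebf1 2 (0.0806) and trSrebf1 3 (0.15) left out, with 0.0176 to 0.15 over all alternatives. So of 3 tested receptor-list genes 1 rose and 2 fell (median -0.30), against 17.2% higher and 13.0% lower of all tested genes, but only Ptgir kept its call throughout these alternatives.

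Some receptor and synthase genes had too few tags to be tested. Ptger3, which encodes an E receptor, had 2, 4 and 4 tags in trSrebf1, against 9, 10 and 5 tags in control. Ptgfr had 2, 1 and 0 tags in trSrebf1 and 2, 2 and 1 tags in control. Ptgds, a prostaglandin D synthase, had 2, 4 and 3 tags in trSrebf1 and 0 tags in each control library.

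**Figure D4:**
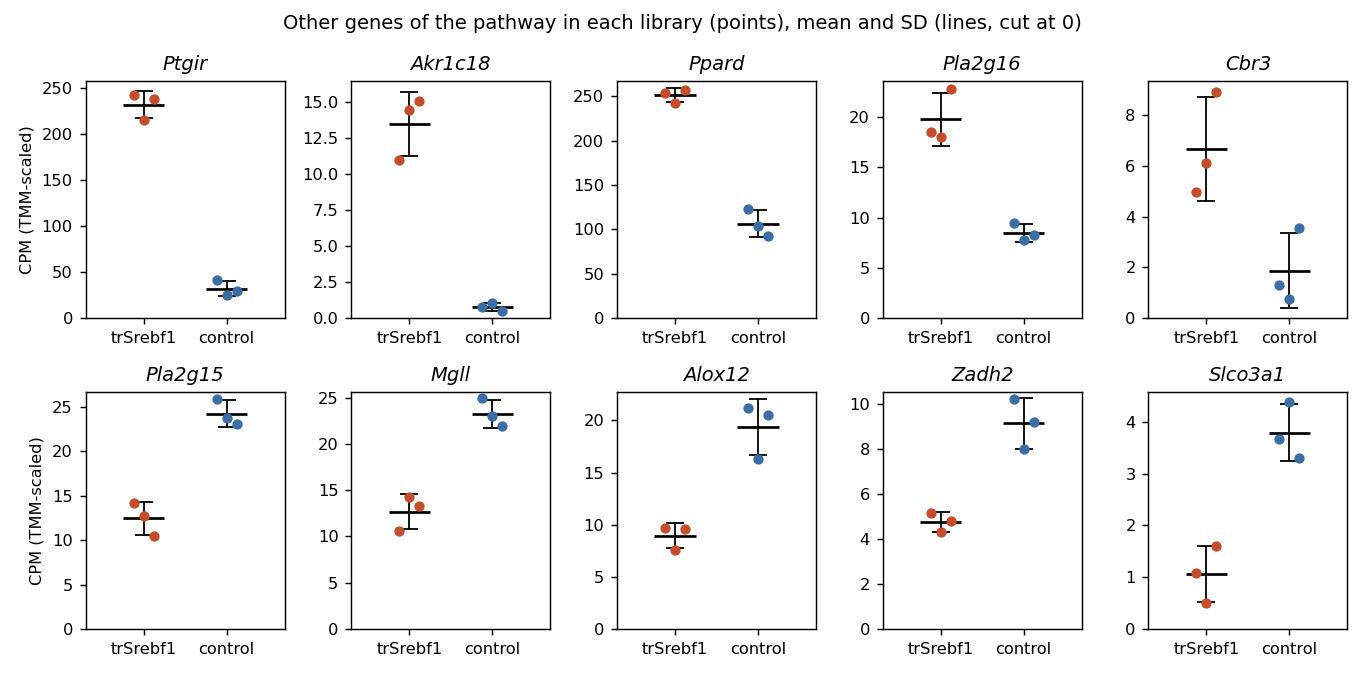
CPM of 10 surrounding genes in each library, trSrebf1 left of control. The 10 were picked, after their values were seen, from the genes named here that passed the threshold. Ptgir, Akr1c18, Ppard, Pla2g16 and Cbr3 are higher in all 3 trSrebf1 libraries, and Pla2g15, Mgll, Alox12, Zadh2 and Slco3a1 are lower.

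Related lipid and receptor genes were also read. Of the leukotriene and lipoxygenase list 1 of 5 rose and 1 fell (median -0.03), against 17.2% higher and 13.0% lower of all tested genes. Alox12, a 12-lipoxygenase, averaged 8.96 ± 1.17 CPM in trSrebf1 and 19.3 ± 2.69 CPM in control and fell by 1.10 on the log2 scale (SE 0.23, edgeR adjusted p = 0.00106). Ephx1, an epoxide hydrolase, averaged 51.5 ± 10.1 CPM in trSrebf1 and 33.3 ± 6.95 CPM in control (log2 fold change 0.63, adjusted p = 0.0152), and its call was lost without control 1 (0.0541), control 2 (0.0567), trSrebf1 1 (0.0729) or trSrebf1 3 (0.0628), with 0.00148 to 0.0729 over all alternatives. Of the nuclear receptors named as prostanoid targets 1 of 3 rose (median 0.12), against 17.2% higher of all tested genes. That gene was Ppard, which averaged 251 ± 7.64 CPM in trSrebf1 and 106 ± 15.3 CPM in control (log2 fold change 1.24, SE 0.12, adjusted p = 3.26e-07).

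Downstream of EP2 and EP4 lies the cyclic AMP pathway. Of its 29 tested genes 6 rose and 11 fell (median log2 fold change -0.23), against 17.2% higher and 13.0% lower of all tested genes. Akap12, a scaffold of protein kinase A, averaged 446 ± 49.0 CPM in trSrebf1 and 82.9 ± 15.4 CPM in control (log2 fold change 2.43, SE 0.14, edgeR adjusted p = 5.28e-10). The phosphodiesterases Pde3b (1.10, adjusted p = 1.32e-05) and Pde4a (1.17, adjusted p = 0.00134) and the cyclase Adcy7 (1.00, adjusted p = 0.000115) also rose. Neither enzyme class moved as a whole. Pde8a rose (0.88, adjusted p = 0.0491), while Pde4b (-1.53, adjusted p = 0.0138), Pde4d (-0.94, adjusted p = 0.0150) and Pde3a (-0.83, adjusted p = 0.0262) fell. The cyclase Adcy3 fell as well (-0.79, adjusted p = 0.0151). The cyclic AMP-responsive nuclear receptors fell. Nr4a3 averaged 34.6 ± 10.5 CPM in trSrebf1 and 168 ± 24.9 CPM in control (log2 fold change -2.28, SE 0.19, adjusted p = 2.28e-07), Nr4a2 changed by -1.68 (adjusted p = 4.02e-07) and Nr4a1 by -1.36 (adjusted p = 8.42e-06). The kinase Sik1 changed by -0.97 (adjusted p = 4.07e-06). Prkar1a, the most abundant of the list, did not pass at -0.25 (adjusted p = 0.0654) but passed in 5 alternatives, with 0.0115 to 0.241 over all alternatives, among them without control 1 (0.0425).

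Ptgs2 is known to be induced by cytokine signals and held down by mRNA decay. Of the 23 tested inducers and regulators 1 rose and 9 fell (median -0.23), against 17.2% higher and 13.0% lower of all tested genes. Il1r1, the interleukin 1 receptor, averaged 27.6 ± 2.06 CPM in trSrebf1 and 67.2 ± 1.05 CPM in control (log2 fold change -1.28, SE 0.15, edgeR adjusted p = 2.53e-06). The decay factors that bind AU-rich elements, Zfp36l1 (-1.06, SE 0.11, adjusted p = 8.25e-07) and Zfp36 (-0.81, SE 0.13, adjusted p = 0.000193), were lower too, as was Fos (-0.73, SE 0.09, adjusted p = 7.75e-06). Tnfrsf1a, a tumour necrosis factor receptor, rose by 0.56 (SE 0.14, adjusted p = 0.00627). Of the dissociation and immediate early list, which cell isolation is known to induce, 1 of 24 rose and 20 fell (median -0.77), against 17.2% higher and 13.0% lower of all tested genes. Its summed level was 26767 to 31972 CPM in trSrebf1 and 38381 to 46248 CPM in control. Of these genes, 5 stand in more than 1 of these lists. Ptgs2 moved in the same direction as this list, and the part of sample handling in the Ptgs2 result was not tested. Gadd45b rose by 1.66 (adjusted p = 3.47e-09), while Klf4 (-1.08), Fosb (-0.99), Btg2 (-1.41), Klf2 (-1.26) and Ier2 (-0.44) fell.

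**Figure D5:**
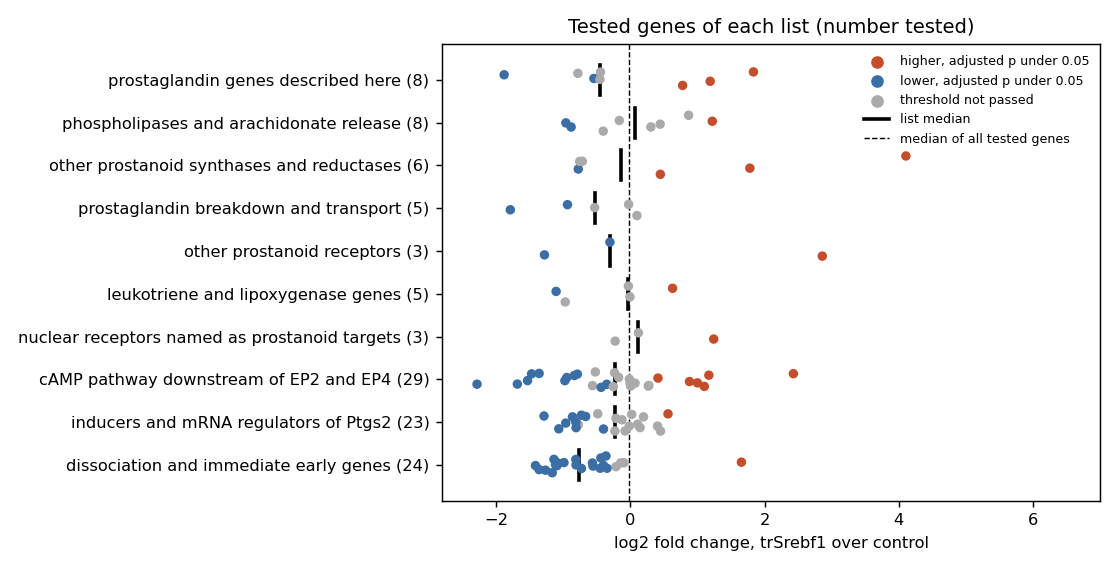
Log2 fold changes of the tested genes of the prostaglandin group and of each surrounding list, with list medians as bars and the median of all tested genes as a dashed line. Immediate early genes lie mostly to the left, with a median of -0.77, and the prostaglandin genes have a median of -0.45.

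The patterns most like that of Ptgs2 over the 6 libraries, by Pearson r of log2 CPM, were those of Mrvi1 (0.9968), Synpo (0.9961), Ets1 (0.9953), Nr4a1 (0.9952) and Nr4a3 (0.9947). These values describe 6 libraries that fall in 2 groups, and 277 genes, or 2.72% of those tested, had an r over 0.95. Mrvi1 averaged 2.58 ± 0.883 CPM in trSrebf1 and 7.93 ± 1.00 CPM in control, and Ets1 averaged 122 ± 9.50 CPM in trSrebf1 and 167 ± 2.92 CPM in control.

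Other cell types can hold these transcripts, so their markers were counted. Macrophage markers, 6 of 12 with a row, summed to 1.14 to 2.79 CPM in trSrebf1 and 1.03 to 4.72 CPM in control, and none was tested. The most abundant of them by the mean over all 6 libraries were Cd14, at 0.688 ± 0.428 CPM in trSrebf1 and 1.01 ± 0.791 CPM in control, and Lyz2, at 0.317 ± 0.165 CPM in trSrebf1 and 0.594 ± 0.664 CPM in control. Csf1r, which was higher than either in the trSrebf1 mean, had 3, 5 and 1 tags in trSrebf1 and 1, 0 and 0 tags in control. The mast cell list, 4 of 10 with a row, summed to 91.0 to 101 CPM in trSrebf1 and 64.5 to 92.5 CPM in control. Almost all of it was Gata2 (log2 fold change 0.30, edgeR adjusted p = 0.118). Kit had 0, 4 and 1 tags in trSrebf1 and 0 tags in each control library. Endothelial markers, 8 of 10 with a row, summed to 7.77 to 9.14 CPM in trSrebf1 and 2.36 to 3.41 CPM in control. In trSrebf1 most of it was Egfl7, which rose from a mean of 0.590 to 6.65 CPM (log2 fold change 3.43, adjusted p = 1.79e-05). Egfl7 overlaps Gm20532 on the same strand, with 188 of 3101 3' 30-base words shared, and Agpat2 on the opposite strand. Its counts are therefore uncertain. The defining genes Pecam1, Cdh5 and Tek were at 0 in trSrebf1 libraries and had 1 tag or fewer in each control library. Kdr averaged 1.08 ± 0.859 CPM in trSrebf1 and 1.10 ± 0.423 CPM in control. Epithelial markers summed to 27.6 to 43.4 CPM in trSrebf1 and 27.5 to 33.7 CPM in control, and 1 of 4 tested rose, against 17.2% higher of all tested genes. This was Foxj1, a factor of ciliated cells, with 34, 23 and 24 tags in trSrebf1 and 3, 3 and 1 tags in control (log2 fold change 3.34, SE 0.49, edgeR adjusted p = 4.77e-05), while among the untested epithelial markers Epcam had 1 tag or fewer in every library and Cdh1 had 14, 2 and 11 tags in trSrebf1 and 0, 1 and 0 tags in control. Aqp5 (log2 fold change -0.48, adjusted p = 0.140) and Sftpb (0.35, adjusted p = 0.701) did not pass.

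Pericyte and smooth muscle markers summed to 214 to 246 CPM in trSrebf1 and 119 to 131 CPM in control. Of 7 tested, 2 were higher and 4 lower, against 17.2% higher and 13.0% lower of all tested genes. Most of the sum was Cspg4 (mean 120.5 CPM in trSrebf1 and 16.4 CPM in control) and Des (84.2 and 59.8 CPM). The untested Mcam had 6, 1 and 2 tags in trSrebf1 and 4, 5 and 2 tags in control. Rgs5 and Cox4i2, also untested, had 1 tag or fewer in every library. Cspg4 rose (log2 fold change 2.87, edgeR adjusted p = 4.57e-08), and Des rose (0.49, adjusted p = 0.0106) but not without control 3 (0.0551) or trSrebf1 3 (0.063), with 0.00504 to 0.063 over all alternatives. The 4 lower genes were Cnn1 (-1.82, adjusted p = 0.000115), Kcnj8 (-1.12, adjusted p = 0.00784), Abcc9 (-1.44, adjusted p = 0.0242) and Myh11 (-1.14, adjusted p = 0.0497). Abcc9 no longer passed without control 1 (0.121), trSrebf1 2 (0.0806) or trSrebf1 3 (0.0604), with 0.00339 to 0.121 over all alternatives. Without trSrebf1 2 the log2 fold change of Myh11 was -1.73 (0.00714), and it no longer passed in 5 alternatives, among them without control 1 (0.108), control 2 (0.187), trSrebf1 1 (0.202) or trSrebf1 3 (0.152), with 0.00714 to 0.202 over all alternatives. Smooth muscle is a known site of Ptgir, and the part of such cells in the Ptgir and Ptgs1 results was not tested. Mesothelial markers summed to 5051 to 5365 CPM in trSrebf1 and 628 to 697 CPM in control. Almost all of it was Uchl1 (log2 fold change 3.05, adjusted p = 4.34e-13), while Msln had 36, 14 and 25 tags in trSrebf1 and 21, 15 and 27 tags in control. The untested Lrrn4 had 1, 0 and 1 tags in trSrebf1 and 5, 1 and 14 tags in control. Wt1 had 2, 2 and 5 tags against 9, 8 and 4, and Upk3b had 3, 0 and 2 tags against 3, 1 and 5, both untested. Krt19 fell by 1.16 (adjusted p = 0.0317), a call lost without control 1 (0.0804), control 2 (0.0673), control 3 (0.0719), trSrebf1 1 (0.0523) or trSrebf1 3 (0.0834), with 0.00123 to 0.0834 over all alternatives. Fibroblast markers summed to 31573 to 36333 CPM in trSrebf1 and 43755 to 56293 CPM in control, and 1 of 10 tested rose and 8 fell, against 17.2% higher and 13.0% lower of all tested genes. The riser was Pdgfrb, a platelet-derived growth factor receptor, which averaged 143 ± 10.5 CPM in trSrebf1 and 78.6 ± 6.28 CPM in control (log2 fold change 0.86, SE 0.12, adjusted p = 2.69e-05). Vim (-0.61, adjusted p = 0.00255) and Col1a2 (-0.47, adjusted p = 0.00157) were lower, and Col1a2, whose promoter drives the reporter, had 6369 to 7572 CPM in trSrebf1 and 8986 to 10594 CPM in control.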

How the data were processed

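Counts of 3'SAGE-seq tags per gene symbol were deposited by the authors as 1 table a library, with no normalization. Bowtie2 2.2.5 and mm10 appear, per the submitters' processing notes, which give neither a role nor a sequence of steps. The counter, annotation and strand setting were not given in the sources used here, so overlapping and near-identical genes are uncertain. The test was edgeR 4.0.16 (R 4.3.3) with TMM factors, filterByExpr with a minimum count of 10 and a minimum total of 15, robust glmQLFit and glmQLFTest with group as the only term, and Benjamini-Hochberg adjustment over all 10194 tested genes at a two-sided threshold of 0.05. A prior count of 0.125 entered fold changes, and CPM used TMM-scaled library sizes. The fitting code was tested on simulated data, where it recovered 76.0% of 2-fold changes and 100.0% of 4-fold changes. Every gene there had the same fixed dispersion, which was not estimated from these libraries, so the recovery does not measure power in these data. The changed genes there were drawn from well-counted ones, so the recovery does not cover genes with few tags. Library totals of 3675146 to 4688196 counts leave genes with few tags imprecise.

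Positions came from GENCODE M21 and promoters from RefSeq GRCm38.p6. Alternatives were upper-quartile factors, plain totals, DESeq2 1.42.0, limma-voom 3.58.1, no filter, a CPM filter, Ctsd left out, a replicate block and each library left out. The text names all 10 genes, Srebf1, Ctsd, up to 4 called genes a direction and the most abundant gene of each surrounding list, the 2 most abundant genes of each marker list, and the 5 genes most like Ptgs2. Genes outside that rule are Ptgs2os, the untested receptors and synthases, Adcy3, Pde3a, Pde4b, Pde4d, Pde8a, Msln, Myh11, Kcnj8, Abcc9, Cnn1, Foxj1 and Pdgfrb. Also outside it are Pecam1, Cdh5, Tek, Epcam, Cdh1, Csf1r, Rgs5, Mcam, Cox4i2, Lrrn4, Wt1 and Upk3b. These were chosen after their values were seen. The genes and lists were chosen with earlier results of these data known.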

Additional observations from a re-analysis of the deposited data

How the results depend on the processing

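All 111 values of the tested prostaglandin genes under 14 alternatives kept their direction and side of the threshold, with 3 higher and 2 lower in each. Over all genes, 1535 to 1977 were higher and 1060 to 1649 lower, and in the surrounding lists 12 to 15 were higher and 34 to 47 lower. Upper-quartile factors moved the share of higher calls to 48.5%, against 56.9%, and the median log2 fold change to -0.10. Replicate numbers did not pair the libraries (correlations of 0.005, -0.112 and -0.054 for numbers 1, 2 and 3), and a replicate block gave 1646 higher and 1174 lower genes. Of 918 values of 66 of the tested genes named, 857 kept direction and side of the threshold, 51 lost the call, 5 gained it and 5 changed sign. Msln, Adcy3, Pde3a, Pde4b, Pde4d and Pde8a were not among the 66. With 1 library left out, Ptgr2 ran from -0.18 to 0.073 (-0.02 with all), above 0 without control 2, control 3, trSrebf1 1 or trSrebf1 2, and Sftpb ran from -0.50 to 0.75 (0.35 with all), below 0 without trSrebf1 2. The cause was not tested. Depth limits Pla2g4a, Ptger4 and Hpgd most.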
